A study of Rattus norvegicus with 9 samples.

Results

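The regions described here are the MBD3 peaks on rat chromosomes 10, 12, 19 and 20. They were taken from the peak lists of 7 rats by their chromosome alone, and 30290 of the 246164 listed peaks (12.3%) lay there. The 4 chromosomes had been picked because the lists of stimulated rats held a larger share of their peaks on them than the lists of sham-operated rats. That share is therefore described here and not tested. They are also rich in genes: in the RefSeq annotation of assembly GRCr8 they ranked 1, 2, 4 and 5 among 21 chromosomes for protein-coding genes per Mb, with 16.6, 12.9, 11.6 and 11.4 in the order 10, 12, 19 and 20. Chromosome 1 ranked 3, with 11.7, but its shares overlapped between the groups, with means of 11.6% in sham and 11.4% in stimulated lists.

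MBD3 belongs to the methyl-CpG-binding domain family but, unlike its relatives, binds methylated DNA weakly in mammals. It is a core subunit of the NuRD complex, which joins a nucleosome-remodelling ATPase to histone deacetylases. NuRD is found at promoters and enhancers and tunes how strongly they are used, and in neurons it is known for switching off activity-dependent genes. Chromatin immunoprecipitation with sequencing (ChIP-seq) recovers the DNA lying near such a protein, and a peak is a stretch where the recovered fragments, counted as sequence tags, pile up above a local background.

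All 7 animals were male Sprague-Dawley rats of 290 to 320 g, and each carried a bipolar electrode in the left lateral amygdala. In 4 rats the electrode was used to deliver 60 Hz trains of 400 µA over 20 min. Prolonged seizures evoked in this way model epilepsy of the temporal lobe. These rats were given diazepam at 20 mg/kg 1.5 h after stimulation. The 3 sham-operated rats had the electrodes without stimulation, and diazepam is recorded only for the stimulated rats, so the drug and the stimulation cannot be told apart. Tissue was taken on day 14 as 1 piece holding the amygdala with the piriform, perirhinal and entorhinal cortex, so a change in the mixture of cells and a change in binding per cell cannot be told apart.

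The lists differed in length and depth before any chromosome was considered. They held 12269 to 32399 peaks in sham rats, and 9500, 109947, 2754 and 65074 in stimulated rats 1 to 4. All 4 stimulated libraries had more filtered tags (4812579 to 17960510) than any sham library (2436208 to 3668143), and each group had its own input library, so depth and input cannot be told apart from treatment. The library of stimulated rat 3 stood apart with 78.3% duplicate tags, against 39.1% at most elsewhere. The list of stimulated rat 1 stood apart in that few of its peaks were shared. For these reasons values are given rat by rat, and the main counts also without each rat.

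Chromosome 10 carried the largest excess in percentage points of the list. It held 3.86%, 3.43% and 3.75% of the peaks of sham rats 1 to 3, and 7.53%, 4.96%, 5.99% and 5.29% of the peaks of stimulated rats 1 to 4. The lowest stimulated share lay above the highest sham share, and the group means were 3.68% ± 0.223 (SD, n = 3) and 5.94% ± 1.14 (SD, n = 4). The difference of 2.26 percentage points was 1.73 without stimulated rat 1. As a ratio of the stimulated to the sham mean, chromosomes 10 and 12 were alike at 1.61 and 1.60, with 1.46 on chromosome 19 and 1.30 on chromosome 20.

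Chromosome 12 held 1.78%, 1.86% and 1.87% of the sham lists and 4.4%, 2.37%, 2.18% and 2.81% of the stimulated lists. The groups again did not overlap, and the difference of the means was 1.10 percentage points, or 0.618 without stimulated rat 1. Counting error was widest in the shortest list: the 60 peaks of stimulated rat 3 gave a 95% Clopper-Pearson interval of 1.67% to 2.80%, which included every sham share. Such intervals cover counting error only.

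Chromosomes 19 and 20 were close to the edge of the choice. Chromosome 19 held 2.50%, 2.08% and 2.45% of the sham lists and 5.61%, 2.63%, 2.51% and 2.93% of the stimulated lists, so that stimulated rat 3 and sham rat 1 were all but level. Its difference of 1.07 percentage points came to 0.343 without stimulated rat 1. Chromosome 20 held 1.99%, 1.73% and 2.02% of the sham lists and 3.19%, 2.23%, 2.11% and 2.40% of the stimulated lists. There the difference was 0.570, or 0.335 without stimulated rat 1. Just outside the choice lay chromosome 8, which had shares of 4.34% to 4.69% in sham and 4.79% to 5.32% in stimulated lists and ranked 8 for gene density.

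**Figure D1:**
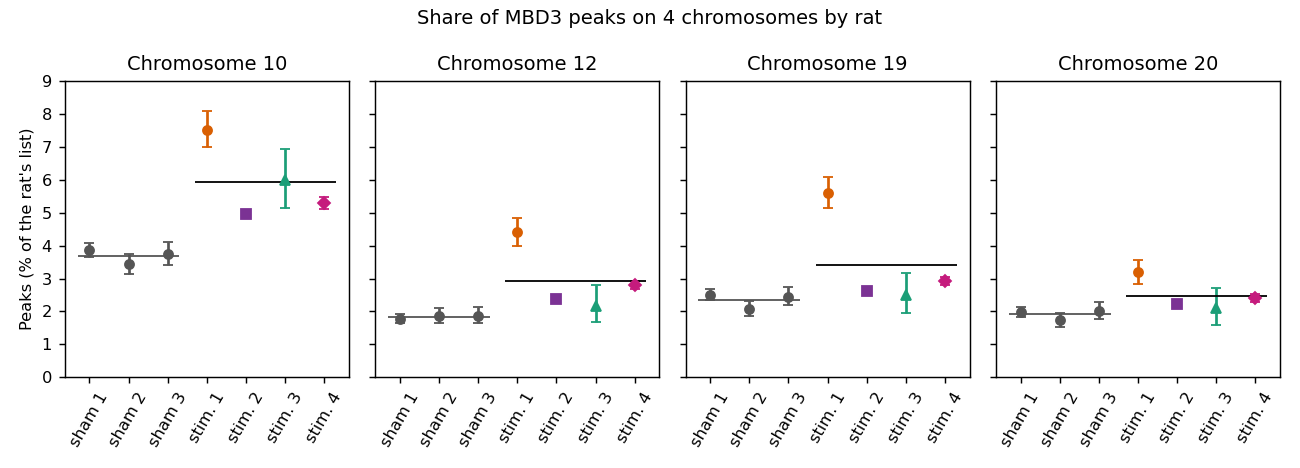
Percent of each rat's MBD3 peaks that lay on chromosomes 10, 12, 19 and 20, with 95% Clopper-Pearson intervals. Horizontal lines are the group means; stimulated rat 1 was highest on each chromosome, with 7.53%, 4.4%, 5.61% and 3.19%.

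The larger share was spread over many windows and not held by a few. The 4 chromosomes were divided into 1 Mb windows by the summit of each peak, the position of highest pileup, and 286 windows held a peak in at least 1 list. The mean stimulated share was above the mean sham share in 193 of them (67.5%). No genome-wide share is given for this count, and the chromosomes were chosen for the contrast, so its size is not read as a result. The 5 windows with the largest differences made up 9.11% of the summed positive differences, and without these 5 the net excess was 4.42 of 5.01 percentage points. It took 48 windows (16.8%) to reach 50% of the summed positive differences. No genome-wide value is given for these sums either, so they only describe how the chosen excess was laid out.

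Chromosomes 10 and 12 had the broader excess. On chromosome 10 the mean difference was positive in 84 of 113 windows and 21 windows made up 50% of the positive sum. On chromosome 12 these numbers were 40 of 54 and 12. The excess was narrower on chromosome 19, with 40 of 62 windows positive and 8 needed, and on chromosome 20, with 29 of 57 positive and 8 needed. The top 5 windows made up 15.9% and 24.9% of the positive sum on chromosomes 10 and 12, and 38.2% and 38.0% on chromosomes 19 and 20. Without them the net excess was 1.84 of 2.26 percentage points on chromosome 10 and 0.757 of 1.10 on chromosome 12. On chromosomes 19 and 20 it was 0.498 of 1.07 and 0.228 of 0.570, so the top 5 windows held the larger part of it there. Without stimulated rat 1, positive windows numbered 79, 41, 34 and 30 on the 4 chromosomes in the same order. Removing the top 5 windows then left 0.0846 of 0.343 points on chromosome 19 and 0.0865 of 0.335 on chromosome 20.

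**Figure D2:**
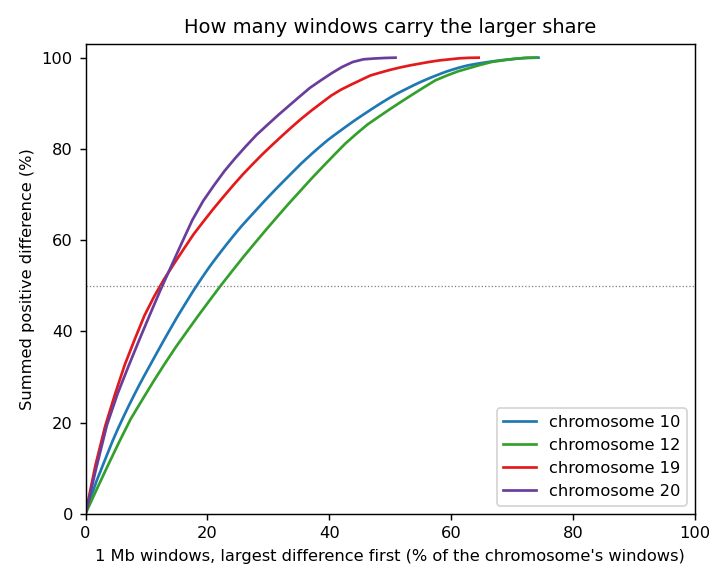
Summed positive difference of the mean window share (stimulated minus sham, percent of the chromosome's positive sum) against the percent of its 1 Mb windows, ranked from the largest difference. The dotted line marks 50%, reached with 21, 12, 8 and 8 windows on chromosomes 10, 12, 19 and 20.

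Every stimulated list exceeded every sham list in 58 of the 286 windows (20.3%). Over all 2786 windows of the genome the same was true of 9.37%; since the chromosomes were chosen for this contrast, nothing is read from the difference between these percentages. The 58 windows comprised 27 on chromosome 10, 11 on chromosome 12 and 10 each on chromosomes 19 and 20. In the reverse direction, 11 windows (3.85%, against 8.65% genome-wide) were lower in every stimulated list, and 5 of these were on chromosome 19. Single rats exceeded the highest sham share in 157, 123, 111 and 139 windows, in the order of stimulated rats 1 to 4. No genome-wide share is given for these counts, so they only compare the rats.

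Few peaks per window lay behind these calls in the shortest list. Stimulated rat 3 had a median of 1 peak per window and none in 105 of the 286 windows, and 1 peak was 0.0363% of its list. With stimulated rat 3 left out, 94 windows were higher in every remaining stimulated list, against 14.8% of all windows. The number also rose, to between 61 and 85, with any other rat left out, as fewer lists then have to separate. With stimulated rats 2 and 4 alone, the longest lists, the number was 106, against 19.4% of all windows.

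**Figure D3:**
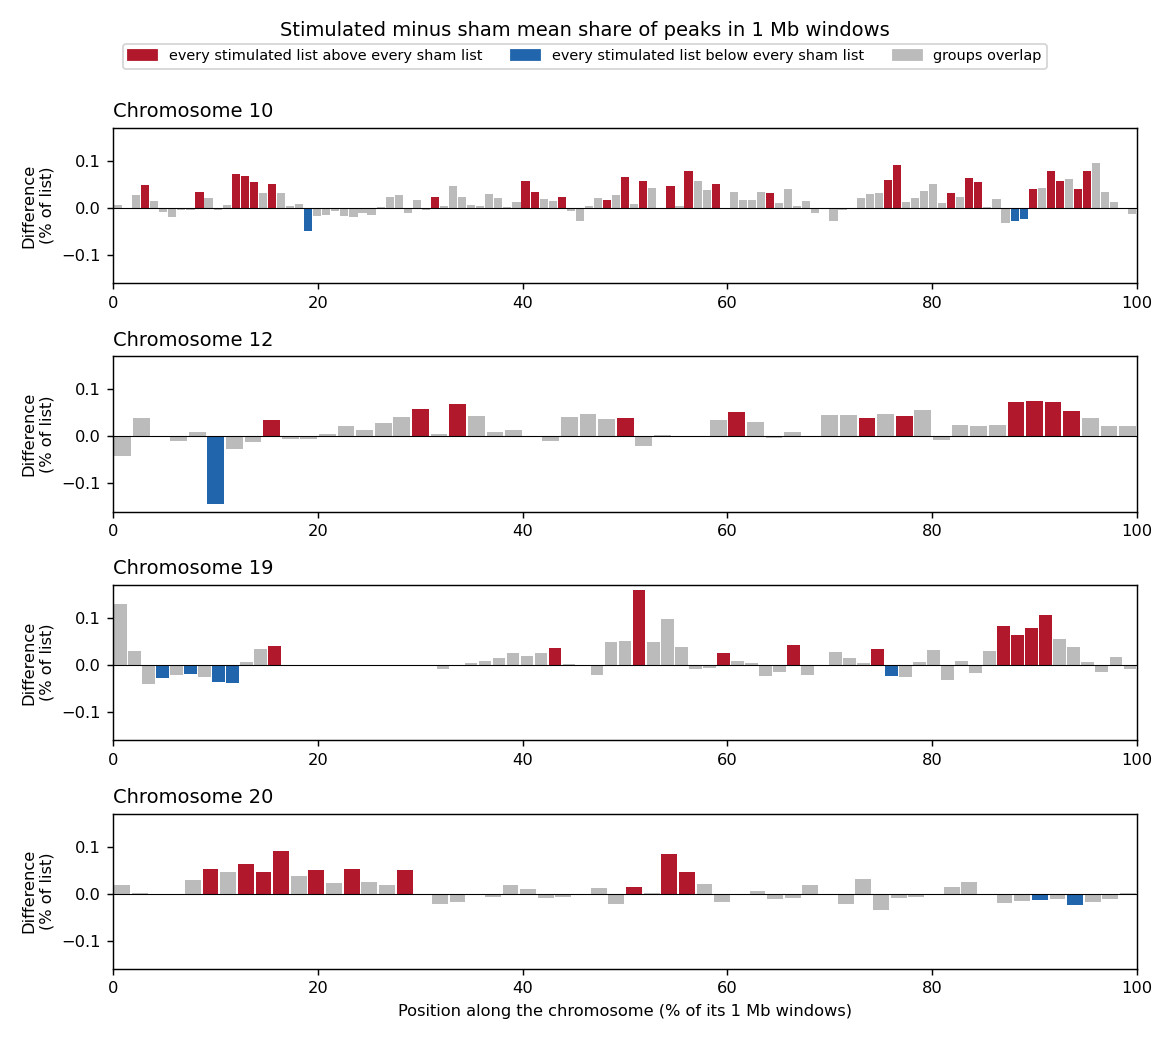
Difference between the mean stimulated (n = 4) and mean sham (n = 3) share of peaks in each 1 Mb window, in percent of the list, along each chromosome. Red windows (58) were higher and blue windows (11) lower in every stimulated list; gaps are windows without a peak or with a difference near 0.

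Each chromosome had 1 run of at least 3 adjacent windows that were all higher in stimulated lists, and these runs were picked out after their values were seen. On chromosome 10 the run lay at 13 to 16 Mb and held 24, 13 and 7 peaks in the sham rats and 39, 147, 10 and 109 in the stimulated rats. In shares, this was 0.0741%, 0.0914% and 0.0571% against 0.411%, 0.134%, 0.363% and 0.168%. Stimulated rats 1 and 3 were the highest and stimulated rat 2 was the nearest to the sham values.

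The run on chromosome 12 lay at 48 to 52 Mb, close to the end of the chromosome in these lists. It held 0.0864%, 0.0633% and 0.0815% of the sham lists, and 0.663%, 0.176%, 0.327% and 0.243% of the stimulated lists. Every stimulated value was above every sham value.

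The run on chromosome 19, at 63 to 67 Mb, held 0.0957%, 0.0563% and 0.0652% of the sham lists. In stimulated rats 1 to 4 the shares were 0.832%, 0.197%, 0.327% and 0.260%, from 79, 217, 9 and 169 peaks. Stimulated rat 1 had the highest share, as it did in all 4 runs.

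The run on chromosome 20, at 7 to 10 Mb, held 0.0710%, 0.0352% and 0.0652% of the sham lists and 0.547%, 0.117%, 0.182% and 0.177% of the stimulated lists. Only 5 peaks of stimulated rat 3 lay there, the same number as in sham rat 2, whose list was longer.

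Median peak heights in these runs were close to those of all peaks on the 4 chromosomes, 5 or 6 tags in sham rats and 9, 8, 6 and 9 in stimulated rats. Median pileup, the number of tags over the summit, was 4.0 to 7 in sham rats and 5.0 to 9 in stimulated rats over the 4 runs. Median fold enrichment, the authors' ratio of pileup to local background with 1 added to each, was 3.83 to 4.10 in stimulated rat 1, where it was lowest, and 4.96 in stimulated rat 2 in all 4 runs. Pileup counts whole tags, and 47.8% to 58.7% of the peaks of each list had the genome-wide background as local background. Medians of pileup and fold enrichment can therefore take few values, and nothing is read from their closeness. Of the peaks of stimulated rat 2, 28.4% to 35.9% met a peak of another rat by at least 1 bp, and of those of stimulated rat 4, 30.4% to 46.2%. In stimulated rat 1 only 0, 1, 2 and 2 peaks did so on chromosomes 10, 12, 19 and 20, so its share was high in the same windows while its peaks rarely overlapped those of other rats.

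On chromosome 10 the window at 86 to 87 Mb had the largest difference among those higher in every stimulated list, with 12, 1 and 3 peaks in sham rats and 13, 69, 5 and 49 in stimulated rats. The windows at 63 to 64 Mb and 107 to 108 Mb followed. At 63 to 64 Mb the shares were 0.0123% to 0.0422% in sham and 0.0591% to 0.182% in stimulated lists, and at 107 to 108 Mb they were 0.0245% to 0.0370% and 0.0455% to 0.200%. In all 3 windows stimulated rats 1 and 3 had the highest shares.

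On chromosome 12 the 3 windows with the largest differences, at 48 to 51 Mb, all belonged to its run. On chromosome 20 the windows at 9 to 10 Mb and 7 to 8 Mb belonged to its run, and the window at 31 to 32 Mb did not. That window held 9, 3 and 2 peaks in sham rats and 15, 67, 4 and 41 in stimulated rats.

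On chromosome 19 the windows at 66 to 67 and 63 to 64 Mb belonged to its run, but the largest difference rested on stimulated rat 1. The window at 37 to 38 Mb held 57 of its peaks, or 0.600% of its list, against 0.0209%, 0.0363% and 0.0200% in stimulated rats 2 to 4 and 0.00815% to 0.0141% in sham rats. Its 3 densest windows on this chromosome, at 37 to 38, 0 to 1 and 39 to 40 Mb, held 146 peaks, 27.4% of its peaks there. Median pileup in them was 15 tags against 9 in the rest of the chromosome, and 58.9% against 19.4% of the peaks had a −log10 q of at least 3. Without these 3 windows the rat's share on chromosome 19 was 4.07%, still the highest of the 7.

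In segments of 10 Mb the stimulated lists were all above the sham lists in 17 of 32 segments and all below in 1. Over all 295 segments of the genome, 20.0% were higher and 18.6% lower in every stimulated list, and nothing is read from the difference, since the chromosomes were chosen for it. Chromosome 10 had 9 of the 17 in its 12 segments. The segment at 100 to 110 Mb held 0.343%, 0.323% and 0.350% of the sham lists and 1.38%, 0.528%, 0.799% and 0.667% of the stimulated lists. Its group means differed 2.49-fold, or 1.96-fold without stimulated rat 1.

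On chromosome 12 the segments at 10 to 20 and 40 to 50 Mb and the last one, from 50 Mb, separated the groups. The segment at 40 to 50 Mb held 0.245% to 0.269% of sham lists and 1.04%, 0.480%, 0.508% and 0.596% of stimulated lists. On chromosome 20 the first segment held 0.176%, 0.105% and 0.179% of the sham lists and 1.02%, 0.256%, 0.363% and 0.344% of the stimulated lists. That 3.23-fold difference of means was the largest of the 32 and was 2.09-fold without stimulated rat 1.

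**Figure D4:**
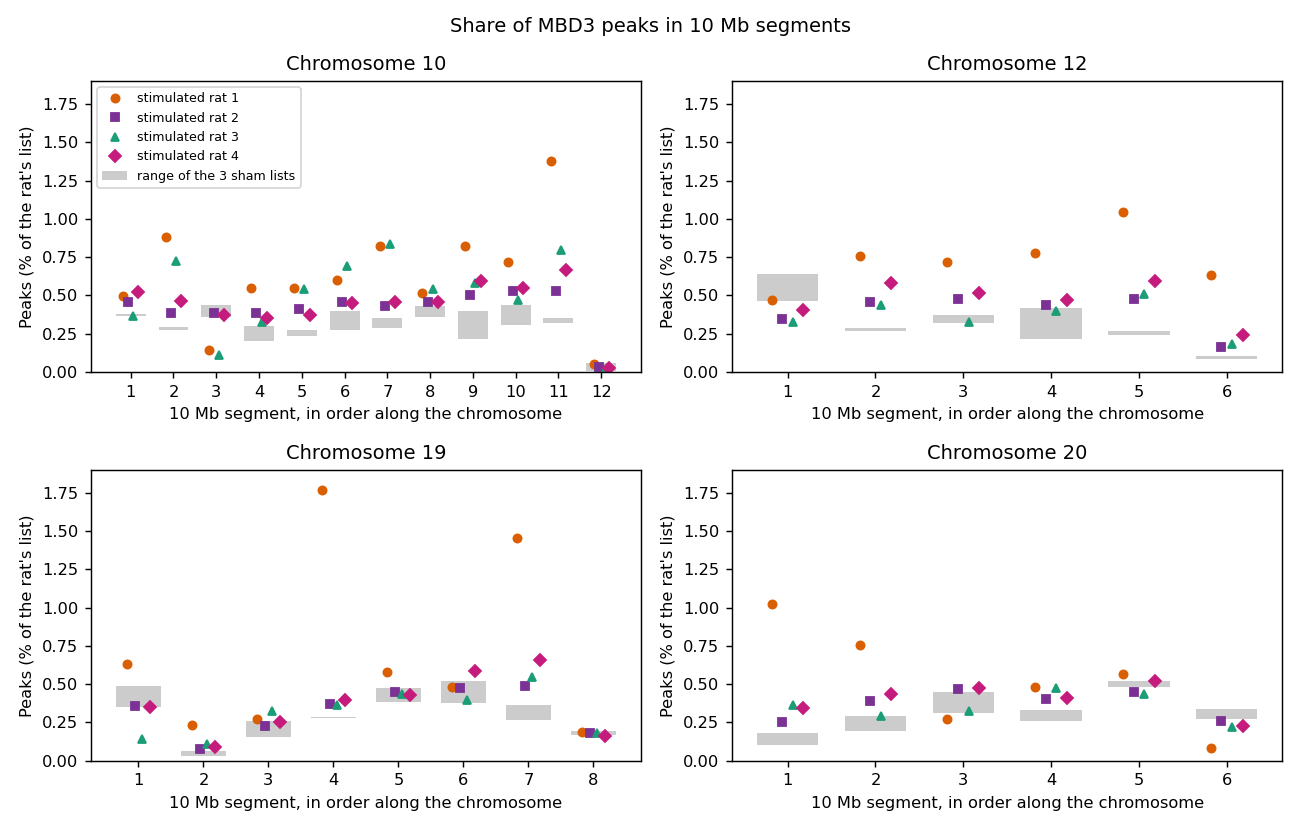
Percent of each list in 10 Mb segments, numbered along each chromosome. Grey bars span the 3 sham lists and symbols are the 4 stimulated rats, which all lay above the sham range in 17 of the 32 segments.

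Other stretches of the same chromosomes ran the opposite way. On chromosome 10, the segment at 20 to 30 Mb held 0.438%, 0.359% and 0.391% of the sham lists. In stimulated rats it held 0.147%, 0.384%, 0.109% and 0.375%, so rats 1 and 3 were far below the sham lists while rats 2 and 4 lay within their range. The last segment of chromosome 20, from 50 Mb, was lower in every stimulated list, with 0.272% to 0.338% in sham and 0.0842%, 0.259%, 0.218% and 0.224% in stimulated rats.

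Of the windows lower in every stimulated list, the largest difference on chromosome 10 was at 21 to 22 Mb, with 21, 12 and 8 peaks in sham rats and 0, 51, 0 and 26 in stimulated rats. At 8 to 9 Mb on chromosome 19 the counts were 20, 6 and 8 against 0, 39, 0 and 26. At 54 to 55 Mb on chromosome 20 they were 10, 5 and 4 against 0, 27, 0 and 9. In all 3 windows stimulated rats 1 and 3 had no peak. For stimulated rat 3 this says little, as it had no peak in 105 of the 286 windows. In its list 1 peak was 0.0363%, above every sham share at 54 to 55 Mb on chromosome 20 (0.0309% to 0.0352%). The largest such difference on chromosome 12, at 5 to 6 Mb, is described further on.

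A longer such stretch lay on chromosome 19 at 2 to 9 Mb, and it too was picked out after its values were seen. It held 126, 43 and 38 peaks in the sham rats, or 0.389%, 0.302% and 0.310% of the lists. Stimulated rats 2 and 4 had 289 and 147 peaks there, 0.263% and 0.226%. Stimulated rat 1 had 1 peak in these 7 windows and stimulated rat 3 had none, where a count of 0, taken to allow up to 3 peaks, leaves a share of up to 0.109%. The sham rats were close together there, while the stimulated rats fell into a pair with many peaks and a pair with at most 1.

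Chromosome totals can be set aside by taking each window's share of the peaks on its own chromosome, a measure that the choice of chromosomes did not use. On this scale 34 of the 286 windows were higher and 34 lower in every stimulated list (11.9% each). Genome-wide 9.62% were higher and 8.0% lower, so the shares on the 4 chromosomes were near or somewhat above this background. The even split was not kept with a −log10 q of at least 3, where 7 were higher and 31 lower. An exact two-sided permutation test over the 35 splits of 7 rats, run for each of the 2786 windows, gave 0 windows with a Benjamini-Hochberg adjusted p under 0.05 and 0 with an unadjusted p under 0.05. The smallest unadjusted p that these splits allow is 0.0571, so the test could not pass the threshold.

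A second test, limma on log2 of peaks per 1000 of the chromosome plus 1, called 1 window of the 2786, and it lay on chromosome 12 at 5 to 6 Mb. At an unadjusted p under 0.05 limma gave 275 windows genome-wide (9.87%) and 53 on the 4 chromosomes (18.5%), 29 higher and 24 lower. The called window held 47, 37 and 23 peaks in sham rats, or 8.15%, 14.0% and 10.0% of the chromosome's peaks. In stimulated rats it held 6, 56, 1 and 44, or 1.44%, 2.15%, 1.67% and 2.41%. All 4 stimulated values were below all 3 sham values, and on the log2 scale the share fell by 2.42 (limma, adjusted p = 0.0176).

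This call was sensitive to the lists used. The direction was the same under all 13 other settings, but the adjusted p from limma ranged from 0.00797 to 0.495 and passed in 4 of them. It was 0.0615, 0.165 and 0.207 without sham rats 1 to 3, and 0.0879 and 0.0909 without stimulated rats 1 and 3. With peaks of at least 4-fold enrichment it was 0.426, although the share fell by 4.87 on the log2 scale. With peaks over high background left out it was 0.495, and the share fell by 1.95. The last setting dropped 18, 18 and 15 of the window's peaks in the sham rats and 2, 22, 0 and 18 in the stimulated rats, which lay above 10 times their list's median local background.

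Peaks in this window were tall in every list. Median pileup was 15, 21 and 21 tags in sham rats and 28.5, 20, 12 and 23.5 in stimulated rats, against 5 to 9 elsewhere on chromosome 12. Median local background was 5.62 to 11.8 times that of the rest of the chromosome. Of 68 merged regions in the window, made by joining peaks of all rats that overlap, 14 had a peak in all 3 sham rats. Stimulated rat 2 had a peak in all 14 of these, and stimulated rat 4 in 12. The peaks common to the sham rats were thus mostly present in the longest stimulated lists.

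In the 12 regions of this window with a peak in every sham rat and in stimulated rats 2 and 4, the comparison of heights was added after the values were seen. Fold enrichment of both stimulated rats was below all sham values in 8 regions and above them in 0, and the remaining 4 overlapped. Pileup of both was above all sham values in 7 regions, and local background in 10. Both are in raw tags, and these libraries were deeper, with 7631096 and 12357373 filtered tags against at most 3668143 in sham rats. The measures are valid within a list, so depth and input cannot be told apart from treatment in this comparison. At 5768891 to 5769212, fold enrichment was 11.5, 14.6 and 6.07 in sham rats and 3.74 and 2.11 in stimulated rats 2 and 4. At 5485252 to 5485584 the groups overlapped, with 6.68, 2.999 and 3.09 against 3.92 and 2.79.

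Over all peaks, those on the 4 chromosomes had fold enrichment and pileup close to those of peaks elsewhere in the same list. Median fold enrichment on the 4 chromosomes was 4.64, 4.86 and 4.96 in sham rats and 4.10, 4.96, 4.46 and 4.52 in stimulated rats. Elsewhere it was 4.64, 4.93 and 5.02, and 4.03, 5.05, 4.60 and 4.73. The log2 ratio of the 2 medians averaged −0.01 ± 0.01 (SD) in sham and −0.03 ± 0.04 (SD) in stimulated rats. The difference of −0.02 was smaller than the spread of the stimulated rats (two-sided exact permutation p = 0.457 for 3 against 4 rats, adjusted p = 0.686 over 3 measures). Median pileup was the same on and off the 4 chromosomes in every list, at 5 or 6 tags in sham rats and 9, 8, 6 and 9 in stimulated rats. Both medians can take few values, as stated for the runs, so they had little room to differ.

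Local background is the tag density expected at a peak without enrichment, and its mean was taken without peaks above 10 times the list median. On the 4 chromosomes it was 0.472, 0.366 and 0.334 tags in sham rats against 0.435, 0.348 and 0.314 elsewhere. In stimulated rats it was 1.82, 0.703, 0.461 and 1.14 against 1.82, 0.715, 0.446 and 1.17. The log2 ratio was thus 0.09 ± 0.02 (SD, n = 3) in sham and −0.00 ± 0.04 (SD, n = 4) in stimulated rats. No stimulated rat reached the lowest sham rat, with a difference of −0.09 (two-sided exact permutation p = 0.0571, the smallest these 7 rats allow, adjusted p = 0.171 over 3 measures). The difference turned to 0.0397 when every list was cut to its 2696 strongest peaks. The part of this background in the peak shares was not tested.

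Peaks in the 58 higher windows were close to those in the other 228 windows in height and, in most lists, in fold. Median pileup was the same in both classes in 6 lists and 8 against 9 in stimulated rat 4, and median fold was 4.72, 4.76 and 4.78 against 4.64, 4.86 and 5.02 in sham rats. In stimulated rats it was 4.07, 4.96, 4.87 and 4.52 against 4.10, 4.96, 4.39 and 4.52, with the widest gap in stimulated rat 3. The higher windows held 14.7%, 12.7% and 12.8% of the peaks of sham rats on these chromosomes, and 36.4%, 22.0%, 37.5% and 23.5% of those of stimulated rats, as their selection implies. In each stimulated list a smaller percent of their peaks recurred, with 2.23%, 33.01%, 6.06% and 41.3% meeting a peak of another rat, against 4.71%, 38.4%, 15.9% and 50.8% in the other windows. In sham lists the values were 65.8%, 68.3% and 74.1% against 62.5%, 71.2% and 72.6%, with no common direction. These comparisons are descriptions, since the windows were chosen on the same peaks and the medians can take few values.

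Recurrence also differed between the groups for the 4 chromosomes as a whole. Peaks meeting a peak of any other rat made up 63.0%, 70.9% and 72.8% of the peaks there in sham rats, against 59.8%, 66.9% and 71.3% elsewhere in the same lists. In stimulated rats they made up 3.81%, 37.2%, 12.2% and 48.6%, against 6.02%, 39.0%, 15.2% and 54.0%. The 3 sham lists were thus higher on these chromosomes by 1.48 to 3.98 percentage points and the 4 stimulated lists lower by 1.81 to 5.47. No test is given, because recurrence depends on how many peaks the partner lists have on these chromosomes, which is what the chromosomes were chosen on.

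Split by partner, all 3 sham lists were higher on the 4 chromosomes for partners of the other group, and not for partners of their own. Sham peaks on the 4 chromosomes met a stimulated peak in 59.1%, 64.2% and 67.3% of cases, against 56.0%, 60.3% and 65.2% elsewhere. They met another sham peak in 22.8%, 40.0% and 39.8%, against 22.7%, 38.8% and 40.7%, without a common direction. Stimulated peaks met a sham peak in 0.356%, 18.5%, 5.40% and 19.5%, against 1.17%, 21.6%, 8.58% and 23.9%. They met a peak of another stimulated rat in 3.76%, 28.8%, 11.6% and 44.1%, against 5.99%, 28.1%, 14.5% and 48.2%. For these partners stimulated rat 2 was higher on the 4 chromosomes and the other stimulated rats were lower. Most of the sharing of sham rats was with stimulated rats 2 and 4, the longest lists: 1686 of the 3283 peaks of sham rat 1 met stimulated rat 2 and 1187 met stimulated rat 4, but 9 met stimulated rat 1.

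**Figure D5:**
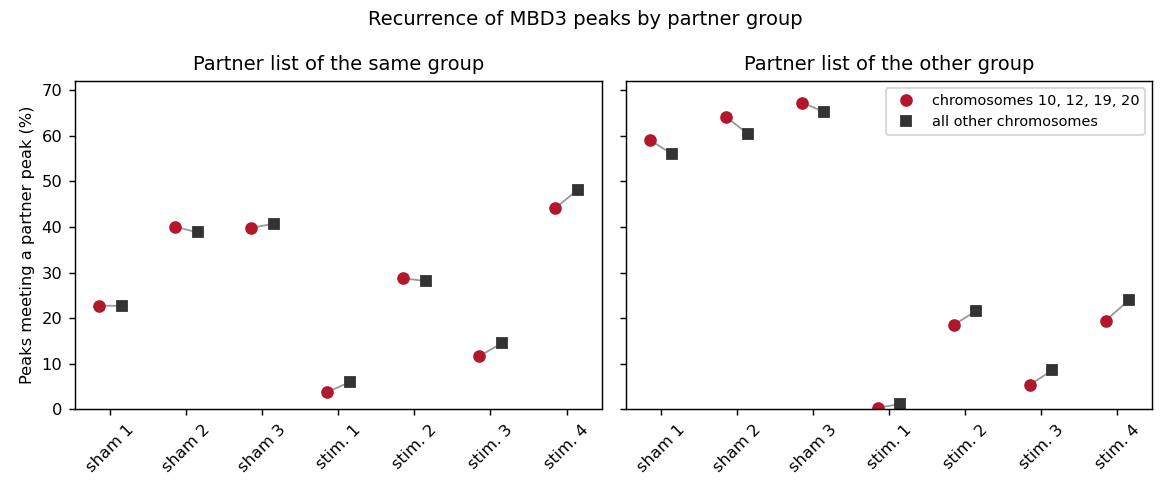
Percent of each rat's MBD3 peaks that met a peak of another rat of the same group (left) or of the other group (right), for chromosomes 10, 12, 19 and 20 (red circles) and all other chromosomes (black squares). On the right, sham rats sat higher on the 4 chromosomes (59.1% to 67.3%) and stimulated rats lower (0.356% to 19.5%).

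Merged over the rats, the peaks of the 4 chromosomes formed 22347 regions, and 17012 of them (76.1%) came from 1 rat, against 73.4% on all other chromosomes. The share was 77.3%, 77.8%, 74.2% and 74.1% on chromosomes 10, 12, 19 and 20. The sham rats had 154 regions in common. Of these, 153 overlapped the list of stimulated rat 2 and 135 that of stimulated rat 4, against 9 and 4 for stimulated rats 3 and 1. The pair of long lists, stimulated rats 2 and 4, had 3636 regions in common, 2432 of them (66.9%) without a sham peak. On all other chromosomes 63.7% of the regions common to this pair had no sham peak. The chromosomes were chosen for a larger share in stimulated than in sham lists, so nothing is read from the difference between these percentages. On the 4 chromosomes only 11 of the 2432 were also called in stimulated rat 1 or 3. Of the 1939 regions with a peak of stimulated rat 1, 1871 were in that rat alone.

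The sites called in at least 6 rats numbered 11 of the 22347 merged regions, and no such count is given for the other chromosomes. Among them, 1 on chromosome 12 and 1 on chromosome 20 were called in all 7 rats, and neither is among the sites named below. Of the 11, the one whose lowest fold enrichment was highest lay on chromosome 10 at 107120914 to 107121535, inside a window named above. Fold enrichment there was 5.04, 6.97 and 10.1 in sham rats 1 to 3, and 13.3, 4.88 and 7.37 in stimulated rats 2 to 4. The corresponding pileups were 7, 9 and 13 tags, and 21, 6 and 15, with no peak in stimulated rat 1.

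The next sites, also without stimulated rat 1, were on chromosome 10 at 83765190 to 83765745, at 71791872 to 71792418 and at 109391999 to 109392293. At the first of these fold enrichment was 9.41, 9.88 and 11.9 in sham rats and 9.85, 4.64 and 9.98 in stimulated rats 2 to 4. The values of stimulated rats 2 and 4 lay within the sham range there, and stimulated rat 3 was lower. Chromosome 12 had 1 of these named sites, at 5494544 to 5496030 in the window that limma called, and it lacked a peak in stimulated rat 3.

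Regions that divided the groups completely were counted among the 22347 merged regions of the 4 chromosomes. No such count is given for the other chromosomes, so these numbers are not read as a trait of the 4. In 2 regions all 4 stimulated and no sham rat had a peak. On chromosome 19 at 67047739 to 67048956, just past the run at 63 to 67 Mb, fold enrichment was 2.64, 3.63, 2.49 and 2.99 over a local background of 91.7, 26.8, 23.1 and 63.1 tags. On chromosome 10 at 78004935 to 78005229 it was 1.54, 2.45, 2.84 and 1.99 over 69.6, 33.2, 3.23 and 54.2 tags. Both regions thus had low fold enrichment. Local background at both lay above the list medians, which were 1.44, 0.612, 0.386 and 0.991 tags in stimulated rats 1 to 4. The reverse case, a site of every sham rat absent from the stimulated lists, occurred once, on chromosome 10 at 21485221 to 21485450, in the segment where stimulated rats 1 and 3 had low shares, with pileups of 4, 6 and 4 tags and fold enrichment of 3.86, 5.75 and 4.18.

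The peaks of highest fold enrichment on each chromosome were shared between the groups in all cases. On chromosome 20 the top sham peak, at 42596850 to 42597121, reached 21.1-, 16.3- and 16.7-fold in sham rats and 6.04- and 4.48-fold in stimulated rats 2 and 4. Its pileups of 51, 33 and 32 tags were lower than the 67 and 78 tags of those stimulated rats, whose libraries were deeper. The top stimulated peak of chromosome 20, at 47869090 to 47869534 in stimulated rat 2, was 15.4-fold there, 7.30-fold in stimulated rat 4 and 4.30- to 11.8-fold in sham rats.

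On chromosome 10 the top peaks were 12.96-fold in sham rat 3, at 71791927 to 71792306, and 14.8-fold in stimulated rat 2, at 92040599 to 92041135. On chromosome 19 they were 14.1-fold in sham rat 1, at 61629428 to 61629762, and 16.6-fold in stimulated rat 2, at 4821178 to 4821495. The latter lay in the stretch where stimulated rats 1 and 3 had almost no peaks, and all 3 sham rats had a peak there. On chromosome 12 they were 15.8-fold in sham rat 2, at 5760586 to 5760989 in the window called by limma, and 15.98-fold in stimulated rat 4, at 1034336 to 1034818.

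The profile of windows along these chromosomes was most alike in stimulated rats 2 and 4. Over the 286 windows, which share a library within each list and are not replicates, Spearman's rho of the share within the chromosome was 0.88 for that pair. The other 5 stimulated pairs had 0.29 to 0.51, and the sham pairs 0.51 to 0.62. Stimulated rat 2 had rho of 0.67, 0.47 and 0.57 with sham rats 1 to 3, and stimulated rat 1 had −0.07, −0.12 and 0.02. With stimulated rats 2, 3 and 4 stimulated rat 1 had 0.35, 0.31 and 0.51. On the 2500 windows of all other chromosomes stimulated rat 1 had 0.11, 0.10 and 0.16 with sham rats 1 to 3, and stimulated rats 2 and 4 had 0.85 with each other. On the 4 chromosomes the median number of peaks per window was 10.5, 4 and 4 in sham rats and 5, 48, 1 and 31 in stimulated rats. Sparse counts can lower rho, and their part in these values was not tested.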

How the data were processed

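MBD3 ChIP-seq peak lists of 3 sham-operated and 4 stimulated rats were used, with groups from the treatment labels. Tools listed in the submitters' processing notes are MACS2 2.1.0.20141030, Bowtie 1.0.0 and cutadapt 1.7.1. Per the file headers, peaks were called per rat against 1 input library per group, with 50 bp tags extended to 150 bp, 1 tag kept per position, sub-summits reported and a q threshold of 0.1. No source used here gives the genome build, so no peak was assigned to a gene and no sequence is printed.

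The deposited lists give pileup, a signal in tags, fold enrichment, a ratio, and −log10 p and −log10 q values, all from the authors' peak caller and valid within a list. Local background was computed as (pileup + 1)/fold − 1. Entries were used as deposited (an interval with several summits has several entries), and a peak belongs to the window of its summit. Depth is the filtered tag total of each file header, and 95% intervals are Clopper-Pearson.

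The chromosomes, windows, alternatives and tests were chosen with earlier results of these data known. Exact permutation tests over 35 splits took p as 2 times the smaller tail. The planned test of recurrence is not read, because recurrence is not free of the chosen contrast. Windows named are, per chromosome, the 3 highest and 1 lowest among those where groups do not overlap; regions named are up to 5 in at least 6 rats or dividing the groups, ranked by lowest fold; and the peak of highest fold per group. The runs and the chromosome 19 stretch at 2 to 9 Mb were added afterwards. The window tests were tested on simulated data. Alternatives were a −log10 q of at least 3, 4-fold enrichment, distinct intervals, equal lists, peaks over high background left out, 5 Mb and shifted windows, windows with a mean of at least 5 entries, a stricter overlap of 50% of each peak, limma, and each rat left out. Tools were Python 3.11.15, numpy 2.4.6, pandas 2.3.3, scipy 1.17.1 and limma 3.58.1 in R 4.3.3.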

Additional observations from a re-analysis of the deposited data

Results flagged for a closer look

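A single stimulated rat lay far outside the range of its group in 6 of 45 measures. By chance this happens in about 1 in 20 measures. In all 6 it was stimulated rat 1, and they overlap, as a segment is part of its chromosome. Its share on the 4 chromosomes together was 20.7%, against 13.4% in the nearest stimulated rat, and on chromosome 19 alone 5.61% against 2.93%. On chromosome 19 the segment at 30 to 40 Mb held 1.77% of its list against 0.398%, and the segment at 40 to 50 Mb 0.579% against 0.449%. On chromosome 20 the first 10 Mb held 1.02% against 0.363%, and the run at 7 to 10 Mb 0.547% against 0.182%. Its library was the deepest of the 7, with 17960510 filtered tags, and 3.81% of its peaks on these chromosomes met a peak of another rat. The part of these in the shares was not tested.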

How the results depend on the processing

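The share of the list on the 4 chromosomes was higher in every stimulated than in every sham list under each setting run, by 5.01 percentage points in all lists and by 3.03 to 5.87 with 1 rat left out. The chromosomes were chosen for this contrast, and leaving a rat out could not undo the separation, so those settings do not test it. Counts of windows were not stable. In all lists 58 windows were higher and 11 lower in every stimulated list. These were 15 and 11 when −log10 q had to reach 3 (2.12% of all windows were higher), 15 and 6 with equal lists (2.05%), 22 and 3 of 60 with 5 Mb windows (14.5%) and 106 and 19 with stimulated rats 2 and 4 alone (19.4%), and 61 to 94 were higher with 1 rat left out. The number shifted within their chromosome was 68, or 34 higher and 34 lower (17.6% of all windows in either direction). It was 38 under the −log10 q limit, 7 higher and 31 lower (9.38%), 30 with equal lists, 12 higher and 18 lower (7.09%), 22 with 5 Mb windows, 11 each way (29.8%), and 72 to 95 without 1 rat. The cause was not tested. With equal lists the log2 difference of fold enrichment turned from −0.02 to 0.0268 and that of local background from −0.09 to 0.0397; the cause was not tested. Without 1 rat these were −0.03 to −0.00 and −0.11 to −0.08. Pileup differed by 0 with each rat left out, and the recurrence difference was −5.98 points, −6.66 to −4.35 without 1 rat, −9.06 under the −log10 q limit, −2.20 with equal lists and −2.27 for partners of the same group. No single-value test passed 0.05 under any setting, which 7 rats do not allow here. The 20 named windows and runs kept their direction under all 12 settings run on them, but 7 still separated the groups under the −log10 q limit, 5 with equal lists and 19 at 4-fold enrichment. They had been picked for full separation, which leaving 1 rat out cannot undo, so those settings were bound to keep their direction. No paired analysis was possible because the rats have no shared numbers: sham rats were numbered 1, 2 and 3 and stimulated rats 5, 11, 12 and 14 in the labels.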
